A study of Mus musculus with 12 samples.

Results

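The nuclear genes for mitochondrial ribosomal proteins were examined in RNA-seq libraries of mouse heart. They were taken as every gene whose symbol begins with Mrps or Mrpl followed by a digit. This rule found 78 of the 17536 genes listed, 29 with Mrps symbols (the small subunit) and 49 with Mrpl symbols (the large subunit). The mice were ICR, an outbred stock, at 10 weeks of age, and there were 12 libraries in 4 groups of 3. The groups were B+AOS10mg/kg-FMT (here AOS-FMT), B+Con-FMT (Con-FMT), busulfan at 20 mg/kg and control. Busulfan alkylates DNA and is used in chemotherapy. The labels do not spell out AOS or FMT, and state a busulfan dose only where the drug was given alone. The study asked how FMT acts on busulfan-injured hearts. Replicates are numbered but not said to be separate mice, so a p-value here measures only the spread between these libraries, part of which may be technical.

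Mitochondria carry their own ribosome, which makes the few respiratory chain and ATP synthase subunits encoded in mitochondrial DNA. Its RNAs are encoded in the mitochondrial genome, but all of its proteins are encoded in the nucleus, made in the cytosol and imported. Some of these proteins correspond to bacterial ribosomal proteins and others are counted as mitochondria-specific. The heart depends on oxidative phosphorylation, and in humans inherited faults in several of these genes, among them MRPL3, MRPL44 and MRPS22, are known causes of cardiomyopathy. By this division 46 of the 78 genes encode homologues of bacterial ribosomal proteins and 31 encode mitochondria-specific ones. The remaining gene, Mrps36, is now assigned to the 2-oxoglutarate dehydrogenase complex rather than to the ribosome. The symbols are also not a strict guide to the subunit, since the products of Mrps30 and Mrps18a sit in the large subunit.

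Library totals lay between 11333600 and 14335700 estimated counts, with 15097 to 16083 genes detected per library. Differences between libraries of one group exceeded sampling noise, at a chi-square of 8.88 to 71.5 for each degree of freedom. The 12 cardiomyocyte markers were present in every library, with summed levels of 92670 to 165684 CPM (library-scaled counts, TMM). The atrial markers Sln, Myl4, Myl7 and Bmp10 differed far more, with summed levels of 8.18 to 8414 CPM. Their mean log2 CPM, called the atrial score here, was 6.57, 10.4 and 9.49 in AOS-FMT libraries 1 to 3, and 3.48, 0.816 and 6.26 in Con-FMT libraries. It was 0.174, 3.94 and 7.29 in busulfan libraries, and 6.04, 10.3 and 9.88 in control libraries. Every AOS-FMT library had a higher atrial score than every Con-FMT library, so atrial content and treatment cannot be told apart in that comparison. Whether a lower level reflects fewer cells of a type or less RNA per cell cannot be told apart in these bulk samples.

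All 78 genes passed the filter on low counts, and the fewest estimated counts of any of them in a library were 173. Levels per transcript length, in the TPM values the authors deposited, spanned 163-fold between genes. Mrpl42, a mitochondria-specific large-subunit protein, had the highest level, at 1302 ± 127 TPM (SD over the 12 libraries). The next were Mrps21, a homologue of bacterial S21, at 636 ± 56.9 TPM, Mrpl52 at 584 ± 64.4 TPM and Mrpl30 at 554 ± 63.7 TPM. These means lie close together relative to the spread, and Mrpl52 and Mrpl30 did not differ beyond it. The lowest were Mrpl19 at 8.02 ± 1.31 TPM, Mrpl17 at 8.71 ± 0.783 TPM and Mrps25 at 9.84 ± 1.09 TPM. The medians of the subunits were close, at 88.1 TPM for the small and 83.4 TPM for the large.

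**Figure D1:**
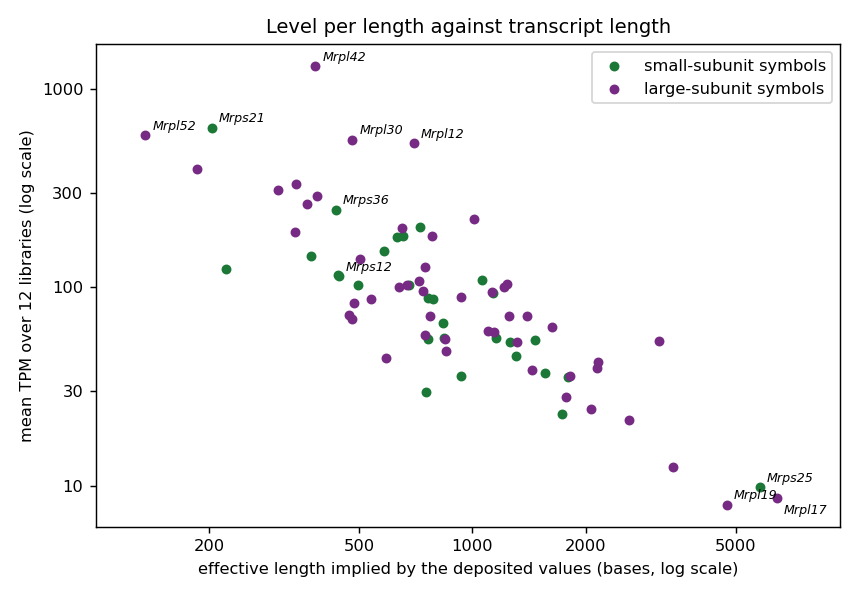
Mean deposited TPM of each of the 78 genes over 12 libraries (y axis, log scale) against the effective transcript length in bases implied by the deposited values (x axis, log scale), with small-subunit symbols in green and large-subunit symbols in purple. The genes of lowest TPM, Mrpl19, Mrpl17 and Mrps25, are those with the longest implied transcripts.

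Levels differed between genes at the extremes of the length that the deposited counts and FPKM imply. The 9 genes with an implied length over 2000 bases had a median of 21.4 TPM, and the 11 under 400 bases had a median of 308 TPM. Length did not set the order of every gene, since Mrpl12, at 699 bases, had 532 TPM and Mrps18c, at 221 bases, had 124 TPM. Mrpl19, Mrpl17 and Mrps25 had implied lengths of 4733, 6430 and 5794 bases. Length enters the TPM itself, so level and length are not separate measurements, and a transcript model that is longer than the RNA present in heart would lower a TPM. How reads shared with processed pseudogenes of these genes were assigned is not given in the sources used here.

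Over the libraries the subunits moved together. For each gene, log2 CPM was set relative to its own mean over the 12 libraries, and the mean over a subunit gave 1 value per library. In AOS-FMT libraries 1 to 3 this value was -0.11, -0.27 and -0.11 for the small and -0.08, -0.28 and -0.12 for the large subunit. In Con-FMT libraries it was 0.02, -0.02 and -0.05 for the small and 0.07, 0.02 and -0.06 for the large subunit. In busulfan libraries it was 0.20, -0.03 and 0.01 for the small and 0.21, -0.03 and 0.02 for the large subunit, and in control libraries 0.44, -0.16 and 0.08, and 0.44, -0.24 and 0.06. The difference between the subunits within a library never exceeded 0.0793, which was in control library 2. All 3 AOS-FMT libraries lay below every Con-FMT and every busulfan library, but control library 2 lay within the AOS-FMT range.

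**Figure D2:**
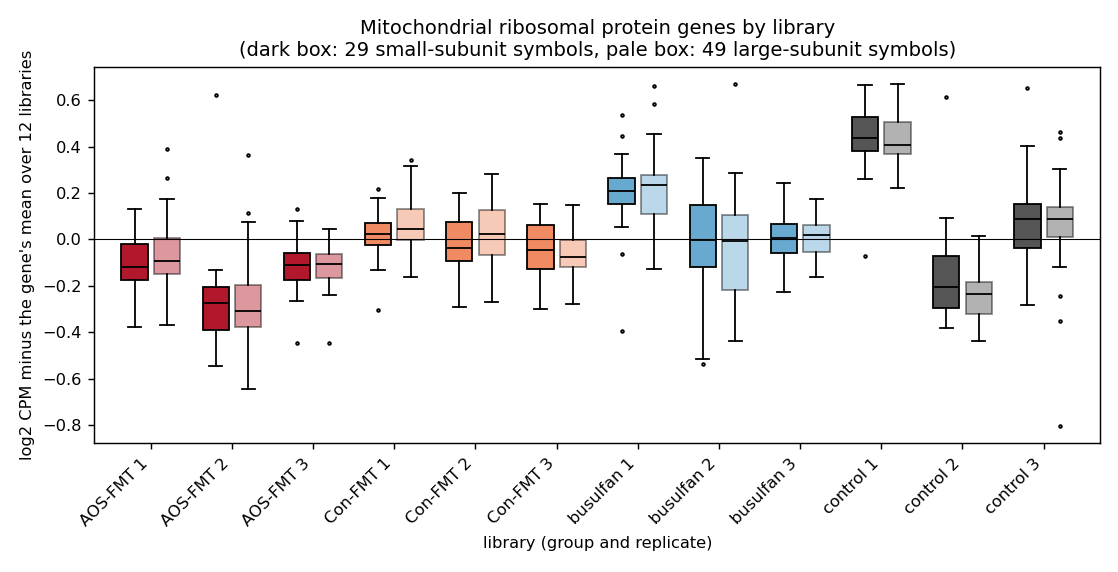
Log2 CPM of each gene minus that gene's mean over the 12 libraries (y axis) in each library (x axis), as boxes over 29 small-subunit symbols (dark) and 49 large-subunit symbols (pale). The line is the median, the box spans the quartiles, and whiskers and points follow Tukey's box plot. The medians of the AOS-FMT boxes lie below 0, and the control boxes are spread widest, between library 1 at the top and library 2 near the AOS-FMT libraries.

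The control group carried most of the spread. Control library 1 held the highest level of 67 of the 78 genes and control library 2 the lowest level of 20, while AOS-FMT library 2 held the lowest level of 36. The summed level of the 78 genes was 5155, 4467 and 5073 CPM in AOS-FMT libraries and 5667, 5555 and 5203 CPM in Con-FMT libraries. It was 6394, 5465 and 5559 CPM in busulfan libraries and 7518, 4678 and 5832 CPM in control libraries. The group means were 4898 ± 376 CPM for AOS-FMT, 5475 ± 242 CPM for Con-FMT, 5806 ± 511 CPM for busulfan and 6010 ± 1428 CPM for control (SD, n = 3 each). The highest AOS-FMT sum was below the lowest Con-FMT and busulfan sums, whereas the control sums included both the highest sum of the 12 libraries and 1 below most AOS-FMT sums.

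In AOS-FMT against busulfan most of the 78 genes lay below 0. The median log2 fold change was -0.22 for the small and -0.22 for the large subunit, against 0.0049 over all 13489 genes tested. Values were below 0 for 76 of the 78 genes, 28 of 29 in the small and 48 of 49 in the large subunit. This count was 64 without busulfan library 1 and 66 without AOS-FMT library 2. In the fit without busulfan library 1, AOS-FMT against control had 75 genes below 0 and AOS-FMT against Con-FMT had 73. All 3 AOS-FMT libraries lay below all 3 busulfan libraries for 31 genes (39.7%), 11 small and 20 large, where 10.9% of all genes tested did so. No gene lay entirely above, where 10.3% of all genes did. No single gene passed edgeR's quasi-likelihood test at a Benjamini-Hochberg adjusted p under 0.05, a level reached by 0.0445% of all genes. The unadjusted p was under 0.05 for 16 genes (15 lower and 1 higher), or 20.5% of the 78 against 13.6% of all genes, and limma-voom called none while DESeq2 called Mrps12 and Mrpl55, where it called 0.971% of all genes. Without busulfan library 2 the count with no overlap was 50, where 17.1% of all genes did not overlap. Without busulfan library 1 it was 31, against 14.6% of all genes. With library size alone as the scaling, the median of all genes moved to 0.14 and the subunit medians to -0.09 and -0.09, so both subunits lay below the median of all genes under either scaling, and 17 genes then had no overlap, against 3.84% of all genes.

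**Figure D3:**
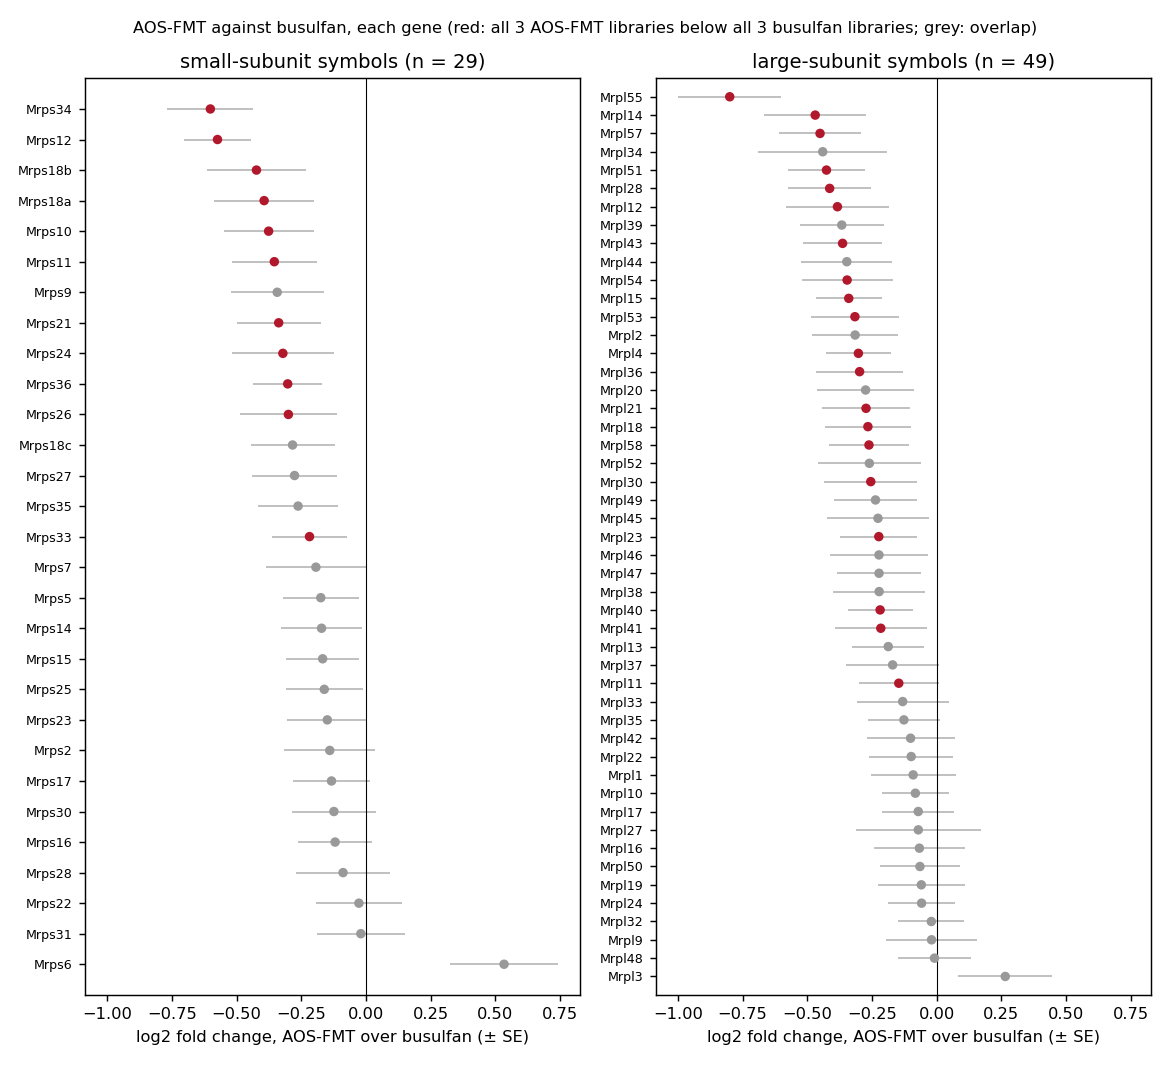
Log2 fold change of AOS-FMT over busulfan (x axis) with its standard error for each of the 29 small-subunit symbols (left) and 49 large-subunit symbols (right), ordered by value. Red points mark the 31 genes whose 3 AOS-FMT libraries all lay below the 3 busulfan libraries, and grey points mark overlap. Only Mrps6 and Mrpl3 lie above 0.

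Markers of other cell types moved with this shift. The 12 cardiomyocyte markers summed to 92670 to 125502 CPM in AOS-FMT and 142392 to 165684 CPM in busulfan libraries, with all 12 below 0 and a median log2 fold change of -0.46. The 10 fibroblast markers summed to 5283 to 10158 CPM in AOS-FMT and 3857 to 5226 CPM in busulfan libraries, and all 10 were above 0. The 10 macrophage markers summed to 808 to 1174 CPM in AOS-FMT and 519 to 747 CPM in busulfan libraries, and the 13 liver markers to 127 to 774 CPM in AOS-FMT and 57.5 to 83.6 CPM in busulfan libraries. The 6 erythroid markers tested summed to 5729 to 8477 CPM in AOS-FMT and 2511 to 4757 CPM in busulfan libraries. Relative to each gene's own mean log2 CPM over the 12 libraries, they averaged 0.51, -0.62 and 0.99 in AOS-FMT libraries. The same average was 0.10, -1.38 and -0.12 in busulfan libraries, so by this measure the groups overlapped. The 10 endothelial markers summed to 1781 to 1944 CPM in AOS-FMT and 1537 to 1747 CPM in busulfan libraries. None of these markers was at 0 in these libraries, and their part in the shift was not tested. The atrial score was tested as a covariate, and the subunit medians were then 0.0049 for the small and 0.02 for the large subunit, with 37 of 78 genes below 0.

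Promoters were read because most of these genes lay on the same side of 0 in AOS-FMT against busulfan. RefSeq promoter windows (GRCm38.p6, 250 bases before to 50 after the start) were matched for 69 of the 78 genes, with 75 windows. They were searched on both strands for 3 motifs of factors known to act on nuclear genes of mitochondria, and for CCAAT. The ETS motif CCGGAAG, bound by the GABP factor among others, was in 26 windows (34.7%, against 8.86% of all 32851 windows and 16% of those of tested genes). The NRF1 motif was in 13 (17.3%, against 4.6% and 9.2%), and the YY1 motif AANATGGCG in 11 (14.7%, against 2.38% and 4.51%). At least 1 of the 3 was in 42 windows (56%, against 14.2% and 26.4%), while CCAAT was in 30 (40%, against 37.4% and 37.4%). Matches of different motifs overlapped in 0 of the 75 windows. The median GC content was 58.7% in these windows, 52.7% in all and 60.3% in those of tested genes. A match is a run of letters, not a bound site. The windows of Mrps6, Mrpl55, Mrpl41, Mrps25 and Mrpl10 held none of the 3 motifs. The promoters of 4 genes are shown, each from 100 bases before to 30 bases from the start, 5′ to 3′ on the gene's own strand, with matches of the 3 motifs (not of CCAAT) in capitals. They are Mrps12 (chr7:28741792-28741921, minus strand, ETS), with the smallest p, Mrpl12 (chr11:120484537-120484666, plus strand, NRF1), for the stalk, and Mrpl51 (chr6:125192100-125192229, plus strand, ETS) and Mrpl57 (chr14:57826139-57826268, plus strand, NRF1 and ETS), the large-subunit genes with the next smallest p after Mrpl55.
Mrps12: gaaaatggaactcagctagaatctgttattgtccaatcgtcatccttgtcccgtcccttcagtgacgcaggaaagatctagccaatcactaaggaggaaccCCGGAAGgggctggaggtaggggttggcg
Mrpl12: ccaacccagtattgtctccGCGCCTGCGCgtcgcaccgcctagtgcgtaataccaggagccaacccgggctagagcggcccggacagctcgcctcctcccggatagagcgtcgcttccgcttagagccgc
Mrpl51: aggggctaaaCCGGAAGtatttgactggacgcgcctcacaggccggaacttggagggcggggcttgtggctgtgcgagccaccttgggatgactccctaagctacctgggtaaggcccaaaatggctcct
Mrpl57: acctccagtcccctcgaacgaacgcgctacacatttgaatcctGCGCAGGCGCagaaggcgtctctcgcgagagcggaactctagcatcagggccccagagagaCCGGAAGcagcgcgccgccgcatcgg
In these 4 windows the ETS match of Mrps12 begins just after the start of transcription, and Mrpl57 holds an NRF1 match before and an ETS match just after its start.

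Mrps12 is the homologue of bacterial S12, a protein of the decoding centre, and had the smallest p of the 78 genes in this comparison. Its level was 31.9, 30.4 and 29.4 CPM in AOS-FMT libraries, 45.3, 43.6 and 32.5 CPM in Con-FMT libraries, 46.2, 48.6 and 41.7 CPM in busulfan libraries, and 52.6, 42.6 and 43.4 CPM in control libraries. Every AOS-FMT value was below every value of the other groups, and the other 3 groups overlapped one another. The log2 fold change of AOS-FMT was -0.57 ± 0.13 (SE) against busulfan, -0.41 ± 0.13 against Con-FMT and -0.59 ± 0.13 against control. The edgeR adjusted p-values were 0.219, 0.737 and 0.167, and DESeq2 gave 0.0249, 0.402 and 0.00995. With the atrial score as a covariate the log2 fold change against busulfan was -0.35. The gene lies on chromosome 7 (28739641 to 28741821, minus strand, GRCm38.p6), and Sars2, the mitochondrial serine tRNA ligase, starts 172 bases away on the other strand. Sars2 had 13.9, 15.5 and 18.3 CPM in AOS-FMT and 22.5, 14.5 and 18.2 CPM in busulfan libraries, and these overlapped.

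Mrpl55, a large-subunit protein, had the largest fold change of the 78 genes against busulfan. Its level was 43.8, 47.6 and 40.0 CPM in AOS-FMT libraries, 52.4, 57.7 and 45.6 CPM in Con-FMT libraries, 86.3, 86.8 and 55.6 CPM in busulfan libraries, and 68.8, 40.3 and 52.3 CPM in control libraries. Busulfan libraries 1 and 2 stood above all other libraries, and the AOS-FMT libraries lay below all 3 busulfan libraries but among the Con-FMT and control libraries. The log2 fold change of AOS-FMT against busulfan was -0.80 ± 0.20 (SE), with an edgeR adjusted p of 0.242 and a DESeq2 adjusted p of 0.0275. Con-FMT against busulfan gave -0.56 ± 0.20, and busulfan against control gave 0.50 ± 0.20, with edgeR adjusted p-values of 0.999 and 0.380.

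Mrps34 is a mitochondria-specific protein that the small subunit needs for its stability, as known from mutant mice. Its level was 73.2, 63.0 and 75.0 CPM in AOS-FMT libraries, 90.6, 102 and 87.9 CPM in Con-FMT libraries, 123, 99.4 and 98.2 CPM in busulfan libraries, and 126, 75.8 and 88.4 CPM in control libraries. The AOS-FMT values were below every value of the other groups. The log2 fold change was -0.60 ± 0.17 against busulfan, -0.41 ± 0.17 against Con-FMT and -0.46 ± 0.17 against control, with edgeR adjusted p-values of 0.279, 0.790 and 0.434. By the GENCODE gene annotation, exons of Mrps34 overlap Nme3 on the same strand and Mapk8ip3 on the opposite strand. Since no source states whether the counting used strand, reads of these genes may have been counted together.

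**Figure D4:**
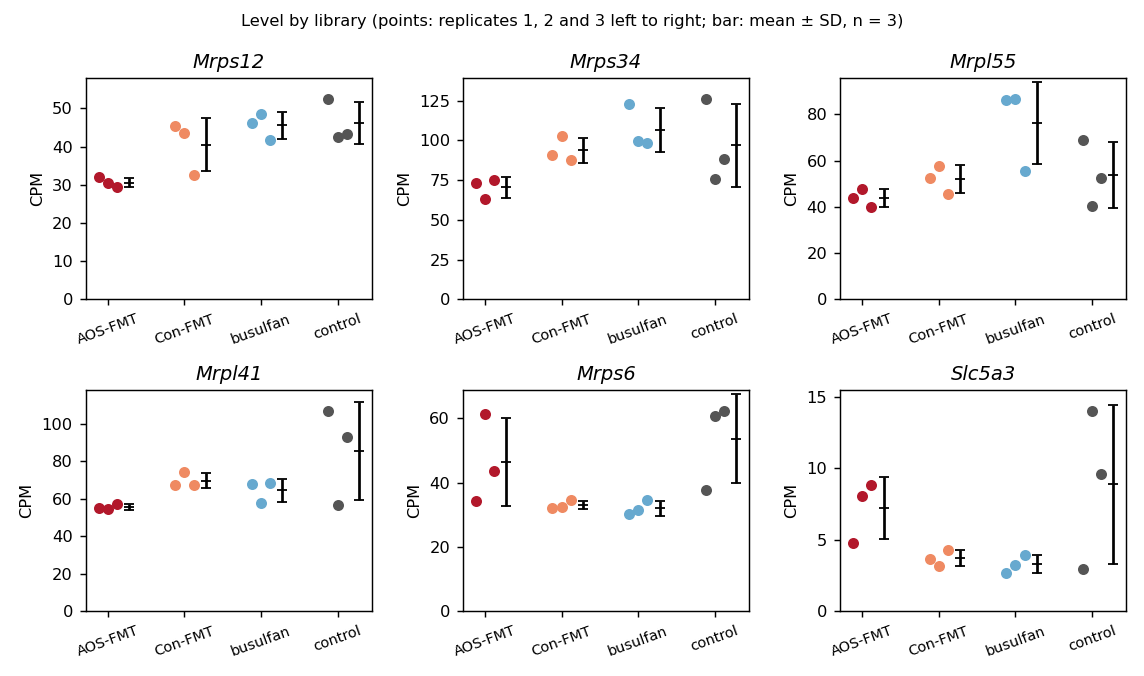
Level in CPM (y axis, from 0) of Mrps12, Mrps34, Mrpl55, Mrpl41, Mrps6 and the overlapping gene Slc5a3 in the 3 libraries of each group (points, replicates 1 to 3 from left to right), with mean ± SD (n = 3). All AOS-FMT points of Mrps12 and Mrps34 lie below those of the other groups, whereas AOS-FMT libraries 2 and 3 and control libraries 2 and 3 are the highest for both Mrps6 and Slc5a3.

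Mrps6, the homologue of bacterial S6, went the other way. Its level was 34.3, 61.1 and 43.4 CPM in AOS-FMT libraries, 32.2, 32.5 and 34.5 CPM in Con-FMT libraries, 30.2, 31.3 and 34.6 CPM in busulfan libraries, and 37.8, 60.7 and 62.3 CPM in control libraries. The highest values stood in AOS-FMT libraries 2 and 3 and control libraries 2 and 3, which are the 4 libraries with the highest atrial scores. The log2 fold change was 0.53 ± 0.21 for AOS-FMT against busulfan, -0.70 ± 0.21 for Con-FMT against control and -0.74 ± 0.21 for busulfan against control, with edgeR adjusted p-values of 0.310, 0.400 and 0.292. With the atrial score as a covariate the value for AOS-FMT against busulfan was 0.14. By the GENCODE gene annotation, exons of Mrps6 overlap Slc5a3, a sodium and myo-inositol transporter gene on the same strand. Slc5a3 had 4.78, 8.07 and 8.85 CPM in AOS-FMT, 3.68, 3.19 and 4.31 CPM in Con-FMT, 2.70, 3.22 and 3.97 CPM in busulfan, and 3.00, 14.1 and 9.60 CPM in control libraries. The same 4 libraries were highest for both genes.

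Single genes of the large subunit, of which 48 of 49 lay below 0 in AOS-FMT against busulfan, are given next. Mrpl12, the stalk protein that recruits translation factors, had 263, 243 and 253 CPM in AOS-FMT libraries and 386, 293 and 312 CPM in busulfan libraries, with no overlap and a log2 fold change of -0.38 ± 0.20. Mrpl10, which anchors the stalk, and Mrpl11, at its base, gave -0.08 ± 0.13 and -0.15 ± 0.15. Mrpl3, near the peptidyl transferase centre, was the only large-subunit gene above 0, with 93.7, 59.6 and 73.8 CPM in AOS-FMT and 65.5, 56.2 and 67.1 CPM in busulfan libraries, which overlapped. Mrpl44 had 50.0, 39.6 and 48.9 CPM in AOS-FMT and 74.7, 44.5 and 56.9 CPM in busulfan libraries, which overlapped too. Mrpl58, a peptidyl-tRNA hydrolase built into the large subunit, had a mean of 55.0 ± 3.22 CPM in AOS-FMT and 65.9 ± 1.21 CPM in busulfan libraries (SD, n = 3 each), with no overlap. The mitochondria-specific Mrpl51 and Mrpl57 gave -0.43 ± 0.15 and -0.45 ± 0.16, also with no overlap. The edgeR adjusted p-values of these genes lay between 0.296 for Mrpl51 and 0.792 for Mrpl10.

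Among the small-subunit genes, Mrps7, Mrps5 and Mrps22 had log2 fold changes of -0.19 ± 0.19, -0.17 ± 0.15 and -0.03 ± 0.17 in the same comparison. Mrps7 belongs to the head of the subunit, and natural variation in Mrps5 expression is known from mouse strains of differing lifespan. Of the 3 genes named Mrps18, a and b encode proteins counted as mitochondria-specific and c encodes the homologue of bacterial S18. They gave -0.39 ± 0.19 for Mrps18a, -0.42 ± 0.19 for Mrps18b and -0.28 ± 0.16 for Mrps18c, and AOS-FMT and busulfan libraries overlapped for Mrps18c alone of the 3. Mrps30 gave -0.12 ± 0.16. Mrps36, which is not a ribosomal protein, gave -0.30 ± 0.13 and had no overlap. None of these passed the test, with edgeR adjusted p-values of 0.347 or more. By origin, homologues of bacterial proteins had a median of -0.19 with 44 of 46 below 0, and mitochondria-specific proteins a median of -0.24 with 31 of 31 below 0. The difference between these medians was not tested.

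AOS-FMT against Con-FMT compares the FMT kinds. The subunit medians were -0.14 for the small and -0.18 for the large subunit, and 72 of 78 genes were below 0. The 3 AOS-FMT libraries lay below all Con-FMT libraries for 25 genes (32.1%, against 7.29% of all genes tested), and for none lay above (against 6.52%). Mrps12, Mrps34, Mrpl19 and Mrpl44 were among these 25. Mrpl19 had 29.5, 23.1 and 26.6 CPM in AOS-FMT and 37.2, 33.5 and 33.3 CPM in Con-FMT libraries, a log2 fold change of -0.39 ± 0.17 with an edgeR adjusted p of 0.792. No gene of the 78 was called by edgeR (0.0297% of all genes), by limma-voom or by DESeq2 (0.237% of all genes), and 4 had an unadjusted p under 0.05, or 5.13% against 6.23% of all genes. Without AOS-FMT library 2 the subunit medians were -0.082 and -0.098, and without Con-FMT library 3 the count with no overlap was 39, where 14.8% of all genes did not overlap. The cardiomyocyte markers summed to 92670 to 125502 CPM in AOS-FMT and 127430 to 134572 CPM in Con-FMT libraries, with 11 of 12 below 0. The liver markers summed to 127 to 774 CPM in AOS-FMT and 62.8 to 103 CPM in Con-FMT libraries, with 13 of 13 above 0 and a median log2 fold change of 2.84. The fibroblast markers summed to 5283 to 10158 CPM in AOS-FMT and 4637 to 5590 CPM in Con-FMT libraries, with 9 of 10 above 0 and a median of 0.39. Of the macrophage markers 8 of 10 were above 0, of the erythroid 6 of 6 and of the endothelial 7 of 10, with medians of 0.31, 0.75 and 0.073. The part of these markers was not tested. With the atrial score as a covariate the subunit medians were 0.08 and 0.09 and 19 of 78 genes were below 0.

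AOS-FMT against control gave the lowest medians, -0.31 for the small and -0.29 for the large subunit, with 75 of 78 genes below 0. The size of these medians depended on control library 1, and without it they were -0.091 and -0.12 with 65 genes below 0. They were then no longer the lowest, since those of AOS-FMT against busulfan were -0.21 and -0.21 in that fit. Only 7 genes (8.97%) had all AOS-FMT libraries below all control libraries, against 3.8% of all genes, and none lay above, against 6.63%. They were Mrps10, Mrps12, Mrps25, Mrps27, Mrps34, Mrpl44 and Mrpl50, named here after their values were seen. Control library 2 decided this count: without it 56 genes did not overlap, where 14.4% of all genes did so. No gene was called by edgeR (0.0815% of all genes) or limma-voom, DESeq2 called Mrps12, where it called 0.904% of all genes, and 17 genes (21.8%) had an unadjusted p under 0.05, against 8.87% of all genes. Mrpl41, a mitochondria-specific large-subunit protein, had 54.8, 54.3 and 57.2 CPM in AOS-FMT libraries, 67.1, 74.1 and 67.3 CPM in Con-FMT libraries, 67.7, 57.4 and 68.1 CPM in busulfan libraries, and 107, 56.6 and 92.6 CPM in control libraries. Its AOS-FMT values were below those of Con-FMT and busulfan, and they met control at library 2. The log2 fold change against control was -0.62 ± 0.18 with an edgeR adjusted p of 0.257, and without control library 2 it was -0.85 with an adjusted p of 0.0123. Beside these values, the liver markers summed to 127 to 774 CPM in AOS-FMT and 57.5 to 152 CPM in control libraries, with 12 of 13 above 0. Fga was at 0 in control library 1, and Fgg and Mup3 were at 0 in control library 3. All 12 cardiomyocyte markers were below 0, with a median of -0.27. Their part was not tested. Mrps25 had 42.4, 37.8 and 39.1 CPM in AOS-FMT and 70.8, 43.8 and 58.4 CPM in control libraries, a log2 fold change of -0.54 ± 0.15 with an edgeR adjusted p of 0.249.

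In Con-FMT against busulfan the medians were -0.08 for the small and -0.07 for the large subunit, and 54 of 78 genes were below 0. Without busulfan library 1 the medians were -0.0091 and 0.0069 with 37 genes below 0, without Con-FMT library 3 they were -0.037 and -0.026, and without busulfan library 3 they were -0.11 and -0.13. Con-FMT libraries lay below all busulfan libraries for 8 genes (10.3%, against 6.58% of all genes) and above them for Mrpl19 alone (against 5.41%). Mrps11, a homologue of bacterial S11, was among the 8, with 33.1, 31.9 and 28.7 CPM in Con-FMT and 40.1, 39.7 and 36.7 CPM in busulfan libraries, a log2 fold change of -0.31 ± 0.16. No gene was called by edgeR, limma-voom or DESeq2 (0% of all genes by edgeR and 0.0148% by DESeq2), and only Mrpl55 had an unadjusted p under 0.05, where 2.65% of all genes did.

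Busulfan against control, the drug alone, had medians of -0.07 for the small and -0.05 for the large subunit, with 53 of 78 genes below 0. Con-FMT against control had medians of -0.15 and -0.11, with 65 of 78 below 0. Both rested on control library 1: without it the busulfan medians were 0.11 and 0.12 with 19 genes below 0, and the Con-FMT medians were 0.04 and 0.07 with 22 below 0. Without control library 2 they were -0.20 and -0.21 for busulfan and -0.26 and -0.25 for Con-FMT. In busulfan against control only Mrps6 did not overlap (lower, against 6.38% of all genes, and none higher, against 7.74%). In Con-FMT against control Mrps6 and Mrpl35 did not overlap (lower, against 4.71%, and none higher, against 7.16%). No gene was called in either comparison by edgeR (0.0593% of all genes for busulfan and 0% for Con-FMT), limma-voom or DESeq2 (0.882% of all genes for busulfan and 0.66% for Con-FMT). Unadjusted p-values under 0.05 numbered 4 for busulfan (Mrps6, Mrps25, Mrpl41 and Mrpl55) and 3 for Con-FMT (Mrps6, Mrps25 and Mrpl48), against 11.3% and 8.2% of all genes.

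The genes differed in how far they ranged over the 12 libraries. Among small-subunit genes the log2 range from the lowest to the highest library was widest for Mrps9 (1.07), Mrps18b (1.05) and Mrps24 (1.04) and narrowest for Mrps18c (0.61), Mrps36 (0.61) and Mrps33 (0.66). Among large-subunit genes it was widest for Mrpl34 (1.23), Mrpl27 (1.18) and Mrpl55 (1.12) and narrowest for Mrpl10 (0.47), Mrpl4 (0.53) and Mrpl24 (0.54). Mrpl27 had 21.9, 34.9 and 25.4 CPM in AOS-FMT, 28.6, 31.4 and 26.4 CPM in Con-FMT, 29.2, 30.9 and 26.5 CPM in busulfan, and 35.4, 26.1 and 15.5 CPM in control libraries. Its extremes thus stood in the control group. The median range was 0.84 for the small and 0.83 for the large subunit, and 0.63 for all tested genes with a mean of at least 5 CPM.

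Other genes that act with the mitochondrial ribosome were described for AOS-FMT against busulfan by lists. The 27 ribosome assembly factors had a median log2 fold change of -0.10, with 24 below 0 and 5 not overlapping (18.5%, against 10.9% of all genes). Rbfa, which matures the small subunit, had 33.5, 32.3 and 34.0 CPM in AOS-FMT and 46.0, 34.6 and 49.5 CPM in busulfan libraries, with no overlap. The 15 translation factors had a median of -0.21 with 12 below 0, and Tufm, the elongation factor Tu of mitochondria, gave -0.31 ± 0.17. The 20 mitochondrial tRNA ligases and amidotransferase subunits had a median of -0.16 with 18 below 0. The list of 6 genes with other names that belong to or act with the mitoribosome, Dap3 and Oxa1l among them, had a median of -0.05 with 3 below 0. None of these lists held a gene called by edgeR in any of the 6 comparisons.

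Upstream and downstream genes differed between lists. Polrmt, the mitochondrial RNA polymerase, had 35.6, 38.7 and 40.9 CPM in AOS-FMT libraries and 52.7, 50.7 and 54.1 CPM in busulfan libraries, with no overlap. Its log2 fold change was -0.45 ± 0.10 with an edgeR adjusted p of 0.211, while the 12 genes of mitochondrial DNA transcription and replication had a median of -0.09 with 8 below 0. The 13 regulators of mitochondrial biogenesis had a median of -0.10 with 12 below 0. Of them Esrra, an orphan nuclear receptor that activates mitochondrial genes, had no overlap and gave -0.30 ± 0.14, and the coactivator Ppargc1a gave -0.07 ± 0.19. The 36 nuclear subunits of complex I, which joins with subunits made on the mitochondrial ribosome, had a median of -0.39, with 36 below 0 and 26 not overlapping (72.2%, against 10.9% of all genes). The 75 cytosolic ribosomal proteins had a median of 0.13 with 54 above 0, opposite in sign to their mitochondrial counterparts in this comparison. Their average relative to each gene's own mean log2 CPM was -0.20, 0.23 and 0.02 in AOS-FMT libraries. It was -0.07, 0.05 and -0.21 in busulfan libraries, so the groups overlapped. In busulfan against control the cytosolic median was -0.33. The average was 0.47, -0.31 and 0.44 in control libraries, of which library 2 was the lowest of the 12 libraries. The 12 mitochondrial proteases and chaperones had a median of -0.23 with 10 below 0, and Clpp, a matrix protease, gave -0.37 ± 0.16. No gene of these lists was called by edgeR.

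**Figure D5:**
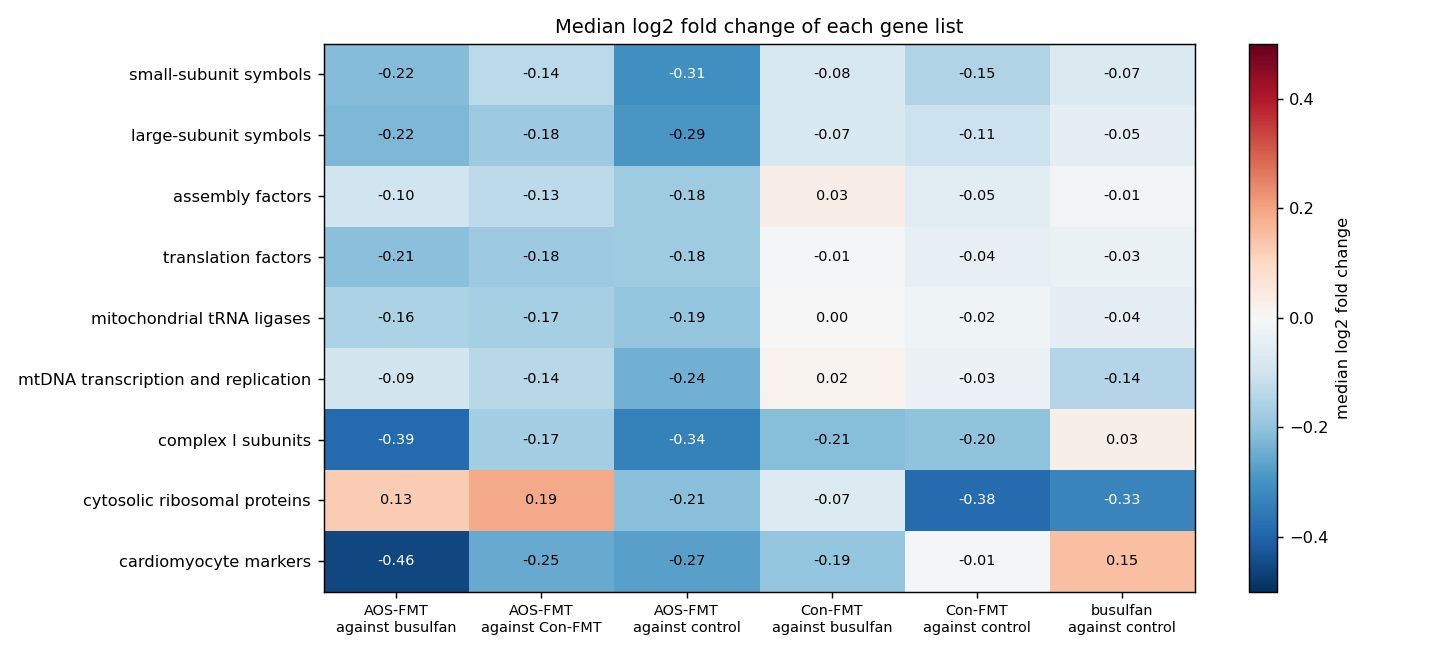
Median log2 fold change of each gene list (rows) in each of the 6 comparisons (columns), with blue below 0 and red above 0 and the value in each cell. The rows of both subunits run nearly alike, from -0.31 for the small subunit in AOS-FMT against control to -0.05 for the large subunit in busulfan against control, and the row of cytosolic ribosomal proteins has the opposite sign in AOS-FMT against busulfan and against Con-FMT. The library averages of the cytosolic genes overlapped between the groups in both of these comparisons.

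The 78 genes lie on 17 chromosomes, with 11 on chromosome 11, 8 on chromosome 17 and 7 on chromosome 6. For 18 of them (23.1%), a protein-coding gene on the opposite strand started at most 1000 bases upstream, against 8.24% of 16709 annotated genes. Pairs that overlap at their starts were not counted. Neighbours and exons were taken from the GENCODE gene annotation, which may differ from the one used for counting. Exons overlapped another protein-coding gene on the opposite strand for 20 of the 78 (25.6%, against 15.1%) and on the same strand for 4 (5.13%, against 4.63%). By GENCODE, exons of Mrps11 and Mrpl46 overlap each other. In RefSeq coordinates they do not, with Mrpl46 at 78775341 to 78783089 and Mrps11 at 78783131 to 78792988 on chromosome 7. Whether reads of this pair could be confused in the counting is therefore not known.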

How the data were processed

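RNA-seq of mouse heart was analysed in 12 libraries, grouped by the labels' treatment. Per the file headers, the authors deposited estimated counts, TPM and FPKM per gene. FPKM was used only for the implied lengths. Of the estimated counts in a library, 94.7% to 95.3% were whole within 1e-09. The submitters' processing notes name Bowtie 0.12.2 and mm10, the build that GRCm38.p6 denotes, and no source used here gives the counting tool, annotation, filters or strandedness.

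Estimated counts were rounded. After filterByExpr, 13489 genes were scaled by TMM (factors 0.908 to 1.08) and fitted once over all libraries, with group as the only term, by edgeR 4.0.16 (R 4.3.3), robust quasi-likelihood. Every adjusted p is Benjamini-Hochberg over all genes tested, with a threshold of 0.05. Fold changes are log2 with standard errors, and levels are CPM. The median standard error was 0.163. Comparisons with a shared group share its libraries. The procedure was tested only on simulated counts, drawn with the same extra spread for every gene and without differences in tissue content between libraries. That test therefore does not show how the procedure performs on libraries as unlike as these. Alternatives were DESeq2 1.42.0, limma 3.58.1 (voom), other scalings and filters, TPM with a pseudocount of 0.1, the atrial score as a covariate, a replicate block and leaving out libraries.

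The genes and lists were chosen with earlier results of these data known. Beside fixed genes, those named had the smallest p per subunit and direction, the highest or lowest TPM, or the widest or narrowest range. Mitochondrially encoded genes were not analysed here. Counting depth limits these levels little, and 3 libraries a group set the precision.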

Additional observations from a re-analysis of the deposited data

How the results depend on the processing

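No gene of the 78 was called by edgeR under another scaling, filter or design, where at most 0.185% of all genes were. DESeq2 called 2 in AOS-FMT against busulfan (2.56%, against 0.971% of all genes) and 1 in AOS-FMT against control (1.28%, against 0.904%). Leaving out single libraries gave 0 to 1 calls in AOS-FMT against control and 0 elsewhere. The 1 call was Mrpl41 without control library 2 (1.28%, against 0.0732% of all genes). With single libraries left out, at most 0.146% of all genes were called in any comparison. Without control library 1 and AOS-FMT library 2 together, an alternative chosen after seeing the data, 1 gene (Mrps6) was called in busulfan against control (where 1.69% of all genes were) and 1 (Mrps6) in Con-FMT against control (0.39%). There 20 and 22 genes lay below 0, and the small-subunit median of AOS-FMT against control was -0.062.

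Leaving out single libraries, the genes below 0 numbered 19 to 68 in busulfan against control and 22 to 75 in Con-FMT against control, with the lowest counts without control library 1. The small-subunit medians ranged from -0.27 to -0.15 in AOS-FMT against busulfan and from -0.17 to -0.082 in AOS-FMT against Con-FMT, and the large-subunit medians from -0.28 to -0.15 and from -0.23 to -0.098. Both kept their sign. In AOS-FMT against control they ranged from -0.42 to -0.091 and from -0.43 to -0.12, and in Con-FMT against busulfan from -0.12 to -0.0091 and from -0.13 to 0.0069. The counts of genes with no overlap, an alternative also added after seeing the data, ranged from 31 to 50 in AOS-FMT against busulfan, 27 to 39 in AOS-FMT against Con-FMT and 9 to 56 in AOS-FMT against control. With 1 library fewer more genes of any kind do not overlap, and the share of all genes ranged from 13.7% to 19%, 10.3% to 15.3% and 6.98% to 14.4% in these comparisons. On library size only they were 17 in AOS-FMT against busulfan (21.8%, against 3.84% of all genes) and 4 in AOS-FMT against control (5.13%, against 1.42%). On TPM the first was 16 (20.5%, against 3.8% of all genes), and on RLE the last was 11 (14.1%, against 4.37%). Without the 2 libraries above it was also 11 (14.1%), below the 17.3% of all genes.

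With the atrial score as a covariate, medians of AOS-FMT against busulfan were 0.0049 and 0.020 with 37 genes below 0, those of AOS-FMT against Con-FMT were 0.079 and 0.092 with 19 below 0, and the large-subunit median of Con-FMT against control was -0.35. Library size only gave -0.088 and -0.094, and TPM -0.092 and -0.093, in AOS-FMT against busulfan. TPM gave 0.020 and 0.035 in Con-FMT against busulfan. The cause was not tested.

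Of the named genes, none of which passed, 35 values changed sign under an alternative. With the atrial score these were Mrps18a -0.15, Mrps34 -0.16, Mrpl39 -0.014 and Mrpl34 -0.22 in busulfan against control, and Mrps18b -0.11, Mrps27 -0.064, Mrps2 -0.22, Mrpl34 -0.33 and Mrpl43 -0.11 in Con-FMT against control. Mrps2 in Con-FMT against control was also -0.0052 with DESeq2, -0.0051 with RLE and -0.0043 with no filter. Leaving out libraries, Mrps34 ranged from -0.0080 to 0.36 in busulfan against control. In Con-FMT against busulfan Mrps2 ranged from -0.0067 to 0.35, Mrps22 from -0.047 to 0.27 and Mrps27 from -0.11 to 0.18. In AOS-FMT against Con-FMT Mrps28 ranged from -0.032 to 0.066, Mrpl16 from -0.080 to 0.22 and Mrpl11 from -0.0077 to 0.089. In Con-FMT against control Mrps27 ranged from -0.047 to 0.19, Mrps2 from -0.071 to 0.086, Mrpl43 from -0.035 to 0.34 and Mrpl27 from -0.10 to 0.46. In AOS-FMT against control Mrpl16 ranged from -0.0081 to 0.29, Mrpl27 from -0.17 to 0.39 and Mrpl3 from -0.13 to 0.19.

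The labels number replicates in each group. Same-numbered libraries had correlations of their deviations from -0.18 to 0.43, with 10 of 18 over 0.1, and 5 of 12 libraries matched their own number best, so the numbers were not taken to pair samples. With the replicate block 0 of the 78 genes were called in each of the 6 comparisons, where 0% to 0.185% of all genes were. With 3 libraries a group, an exact permutation test could not go below 0.1.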
